A study of Homo sapiens with 74 samples.

Results

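The chromatin profiles of CPSF4 and of its paralog CPSF4L comprised 4 Cut&Run libraries, 2 biological replicates of each zinc-finger protein (ZFP), out of 72 libraries with a peak list that covered 36 ZFPs. They were chosen by the ZFP in their labels. They held 2929 of the 92122 peaks of the series, namely 1610 and 945 in CPSF4 replicates 1 and 2, and 243 and 131 in CPSF4L replicates 1 and 2. Every library came from its own well of HEK293T cells, a human embryonic kidney line that is easily transfected. The cells were harvested 48 h after they received a plasmid in which the EF1-alpha promoter drove the ORF with a C-terminal V5 tag. Each list was called against a mock IP, the same V5 profiling of un-transfected cells. The protein profiled was therefore an overexpressed, tagged copy in a cell that still had its own gene.

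CPSF4 is the zinc-finger subunit of the cleavage and polyadenylation specificity factor, the complex that reads the AAUAAA signal near the 3′ end of a nascent pre-mRNA and directs its cleavage. This complex travels with RNA polymerase II and has been found at both ends of genes. CPSF4L is a less studied paralog with the same kind of CCCH zinc fingers. The lists were used to compare how reproducible the peaks of the pair were, where they lay relative to transcription start sites (TSSs) and gene 3′ ends, which genes were nearest, and which regions the paralogs had in common.

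The exons of the transfected gene were the first check of the labels, since plasmid DNA carries the ORF and is not balanced by un-transfected cells. Folds are those of the authors' peak caller at the summit of each peak, with mock IP as the control. Identical folds recur within a library, such as 5.08862 at ARPC5 and TXNDC11 in CPSF4 replicate 1. A fold is therefore not simply a ratio to the mock IP signal at that summit. Each library has its own caller scaling, so folds are only described and were not tested between libraries. On CPSF4 exons the fold reached 1732 in replicate 1 and 1448 in replicate 2 of CPSF4 (chr7:99450275-99450843 of hg38). A neighbouring exon had 1393 and 1239 (chr7:99448119-99448316). The first exon had a fold of 578 in replicate 2 alone, at a place where 7 lists of other ZFPs also had a peak. No CPSF4L list had a peak on any of the 12 exon blocks of CPSF4. The reverse held on chromosome 17, where 5 of the 9 exon blocks of CPSF4L carried peaks in both CPSF4L replicates and in no CPSF4 library. Their folds lay between 75.8 and 236.6 in replicate 1 and between 40.9 and 97.5 in replicate 2. The gene EEF1A1, whose promoter is that of the plasmid, had folds of 5093 and 4249 for CPSF4, of 374 and 185 for CPSF4L, and peaks in both replicates of all 34 other ZFPs. Among the 4 libraries, the exons of each gene thus carried peaks only where the label named that gene. These peaks, 3 and 4 for CPSF4 and 6 and 6 for CPSF4L, were set aside from all that follows.

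One more locus behaved like the plasmid. A processed pseudogene on chromosome 4, which was 88.7% identical to a CPSF4L transcript over 248 bases under its first peak and 94.5% over 91 bases under its second, carried the highest remaining CPSF4L peak (chr4:188630939-188631327) with folds of 180 and 71.7. A second peak on it had folds of 37.0 and 16.6. Neither was called for CPSF4 or in any other list. A read of the CPSF4L ORF and a read of this pseudogene may not be told apart where the sequences match, and this was not tested.

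The sequences on which the comparison turned were of 3 kinds, the U1 snRNA genes that led the CPSF4 lists, the satellite repeats that filled much of the CPSF4L lists, and the promoters that the pair shared. U1 snRNA is the RNA core of the spliceosomal particle that base-pairs with the 5′ splice site. RNU1-2 lies on the plus strand at chr1:16895980-16896143 and is shown whole, with bases 3 to 11, the stretch that pairs with the 5′ splice site, in capitals. RNVU1-28 lies on the minus strand at chr1:144560666-144560829 and is shown because it was a near-copy with a CPSF4 peak, and its capital marks the 1 base that differs from RNU1-2.
RNU1-2: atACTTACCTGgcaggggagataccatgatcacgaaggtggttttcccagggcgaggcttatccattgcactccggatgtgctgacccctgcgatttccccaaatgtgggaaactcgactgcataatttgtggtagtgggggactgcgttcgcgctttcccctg
RNVU1-28: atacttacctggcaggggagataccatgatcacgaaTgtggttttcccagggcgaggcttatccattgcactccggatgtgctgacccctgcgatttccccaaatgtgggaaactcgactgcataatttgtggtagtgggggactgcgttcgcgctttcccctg
The satellite-like region called in all 4 libraries with the highest lowest fold was at chr4:49139420-49139769. The stretch around the summit of CPSF4L replicate 1 (chr4:49139646-49139746, plus strand) held 15 copies of the pentamers ATTCC or GGAAT, in capitals.
Satellite: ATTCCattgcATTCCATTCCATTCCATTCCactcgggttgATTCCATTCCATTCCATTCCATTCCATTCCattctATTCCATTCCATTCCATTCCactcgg
The promoters of POLR1B, the second largest subunit of RNA polymerase I, and of C14orf93 were the 2 protein-coding promoters called in all 4 libraries. For POLR1B the RefSeq promoter window (GRCh38.p14, chr2:112542215-112542514, plus strand) is given, of which all 300 bases lay inside the region. For C14orf93 the 121 bases around the higher CPSF4L summit are given (chr14:23006910-23007030, plus strand, the gene being on the minus strand). Capitals mark GGGCGG, the GC box, and CCAAT and TATAAA were also searched, on both strands.
POLR1B: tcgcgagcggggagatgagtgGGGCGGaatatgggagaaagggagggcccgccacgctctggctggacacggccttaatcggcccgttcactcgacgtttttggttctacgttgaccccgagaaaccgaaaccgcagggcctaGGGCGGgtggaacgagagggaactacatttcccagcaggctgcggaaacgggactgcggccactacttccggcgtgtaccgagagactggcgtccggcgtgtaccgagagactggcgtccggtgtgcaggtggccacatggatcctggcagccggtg
C14orf93: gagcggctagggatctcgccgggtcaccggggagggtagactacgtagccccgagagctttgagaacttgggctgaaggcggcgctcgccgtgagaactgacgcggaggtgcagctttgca

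The 4 lists differed in length and in what filled them. A peak was placed in the first class that fitted of plasmid-borne gene, mitochondrial genome, rDNA, satellite-like sequence, TSS within 1 kb, 3′ end only, inside a gene, and elsewhere. The TSS class held 73.0% and 52.4% of the CPSF4 peaks and 41.6% and 19.8% of the CPSF4L peaks. Satellite-like peaks, those with at least 5 of the pentamers within 100 bp of the summit, made up 4.60% and 9.42% of the CPSF4 lists and 26.3% and 42.7% of the CPSF4L lists. Their numbers were close in all 4 libraries, 74 and 89 for CPSF4 and 64 and 56 for CPSF4L, so the share rose as the list shortened. The rDNA class held 58 and 71 peaks of CPSF4, against 5 and none of CPSF4L. Over the 36 ZFPs, the longer of the 2 lists of a ZFP had the higher TSS share in 29.

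**Figure D1:**
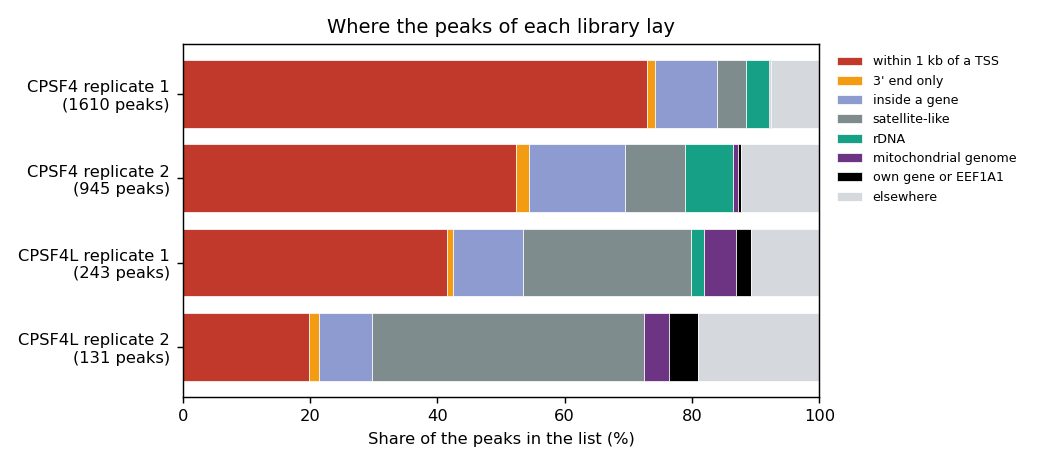
Share of the peaks of each library (horizontal axis, percent of the list) by place, one bar per library with its number of peaks. The red TSS segment shrinks from 73.0% in CPSF4 replicate 1 to 19.8% in CPSF4L replicate 2, and the dark grey satellite-like segment grows from 4.60% to 42.7%.

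Peaks found in both replicates were counted in the shorter list of each ZFP. Of the 941 peaks of CPSF4 replicate 2, 284 overlapped a peak of replicate 1, a share of 30.2% (exact 95% binomial interval 27.3 to 33.2%). Of the 125 of CPSF4L replicate 2, 64 overlapped one of replicate 1, or 51.2% (42.1 to 60.2%). The ZFPs other than CPSF4 had a mean share of 45.7% ± 20.1 (SD, n = 35). They included ZC3H3 and ZMAT5 with 0% and TRIM55 with 0.926%, which have no Cut&Run target count in the paper. CPSF4 itself also lacks such a count there, as do MBNL1 and SNRPC, whereas CPSF4L has one. The paper does not say by name whether the CPSF4 lists passed its quality control on replicates. Among the 36 ZFPs, CPSF4 ranked 29th and CPSF4L 16th by this share. Neither place was unusual by an exact permutation of the ZFP label (p = 0.417 and 0.722, both 0.917 after Benjamini-Hochberg adjustment over the 6 places compared; the smallest possible is 0.0278). The order of the pair turned with list length. With each list cut to its 125 strongest peaks by −log10 q, the share was 71.2% for CPSF4 and 41.6% for CPSF4L. Without satellite-like peaks it was 27.2% and 30.4%, in the same order with a smaller gap.

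After overlapping peaks were merged, CPSF4 had 2251 regions in either replicate and 246 in both. CPSF4L had 279 in either and 51 in both. The content of the both-replicate regions differed. For CPSF4, 135 of 246 (54.9%) lay within 1 kb of a TSS, 49 were satellite-like and 45 were rDNA. For CPSF4L, 8 of 51 (15.7%) lay within 1 kb of a TSS, 36 were satellite-like and none was rDNA. Nuclear promoters of protein-coding genes, outside satellite-like places, were 90 of the 135 for CPSF4 and 2 of the 8 for CPSF4L. The 8 also included regions on the chromosome 4 pseudogene and on the mitochondrial genome. The median rDNA region of CPSF4 was also called in both replicates of 16 other ZFPs. The mean rDNA share of peaks was 5.58% for CPSF4 and 1.05% for CPSF4L, beside a median of 5.87% over the 34 other ZFPs. The folds of CPSF4 in its 246 regions ranged, by the lower replicate, from 1.37 to 28.0. Those of CPSF4L ranged from 1.43 to 3.58 in its 36 satellite-like regions and from 1.62 to 71.7 in its 15 others, the highest being the pseudogene.

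U1 snRNA genes headed the CPSF4 lists. RNU1-2 had a fold of 28.0 in replicate 1 and 58.2 in replicate 2. RNVU1-29, annotated among the variant U1 genes but identical to RNU1-2 in sequence, had 27.5 and 32.2, and RNU1-27P had 27.2 and 53.4. RNVU1-18 followed with 20.9 and 37.4, and RNU1-28P with 15.9 and 34.9. These were the 5 highest regions of CPSF4 outside the plasmid-borne genes, all of them higher in replicate 2, and CPSF4L had no peak on any of them. The regions were 174 to 192 bp wide and fitted the 164-base gene, reaching at most 17 bases before it and at most 12 past it. Of the 143 annotated U1 genes and pseudogenes named RNU1 or RNVU1, 10 had a peak in CPSF4 replicate 1, 6 in replicate 2, and 5 in both. Over all 1901 annotated snRNA genes the share with a CPSF4 peak within 1 kb of the start in both replicates was 0.316%. RNU1-4 with 20.4, RNU1-1 with 15.3 and RNU1-3 with 14.9 were called in replicate 1 alone. CPSF4L had a single such peak, at RNU1-1 in replicate 1, with a fold of 5.86.

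The U1 loci are near-identical copies, and which copy received a read is uncertain. Exactly 8 of the 143 had the sequence of RNU1-2 over all 164 bases, and all 8 carried a CPSF4 peak. The U1 peaks were not particular to CPSF4 either. Between 4 and 11 other ZFPs had both replicates on each of the 5 genes. By the lower fold of its replicates CPSF4 ranked 4th of 11 ZFPs on RNU1-2, 3rd of 10 on RNVU1-29, 4th of 12 on RNU1-27P, 3rd of 5 on RNVU1-18 and 5th of 7 on RNU1-28P. SNRPC, a core protein of the U1 particle, had 21.3 and 29.3 on RNU1-2. WBP4, a splicing factor, had the highest lower fold there, 55.8, and CISD1 came next with 40.8.

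**Figure D2:**
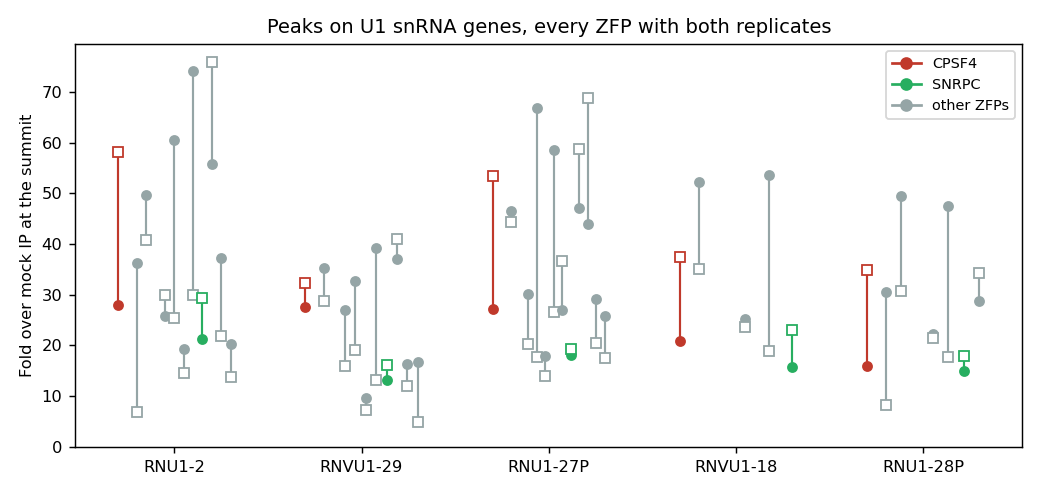
Fold over mock IP (linear axis) of the peaks on the 5 U1 genes that CPSF4 had in both replicates, for every ZFP with both replicates there. Filled circles are replicate 1, open squares replicate 2, and a line joins them. CPSF4 (red) ranks from 3rd to 5th by its lower fold, and SNRPC (green) lies at 21.3 and 29.3 on RNU1-2.

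Other noncoding RNA genes were looked up after the leading regions had been seen, and those with peaks differed in reproducibility. RN7SL1, the RNA of the signal recognition particle, had 10.3 and 14.2 for CPSF4 and 9.97 in CPSF4L replicate 1, with no peak in CPSF4L replicate 2, and 12 other ZFPs had both replicates there. RN7SL2, its near-copy, was called in replicate 1 of both ZFPs with 13.0 and 10.6. RN7SK, which restrains the elongation factor P-TEFb, had 11.2 and 5.47 for CPSF4 and 6.63 in CPSF4L replicate 1, beside 17 other ZFPs. RMRP, the RNA of RNase MRP, had 17.2 and 5.91 for CPSF4, and RPPH1, the RNA of RNase P, had 14 in CPSF4 replicate 1 alone. The long nuclear RNA MALAT1 had 6.09 and 5.69 for CPSF4. SNORD3A, the U3 snoRNA, had 7.99 in CPSF4 replicate 1 alone. None of RMRP, RPPH1, MALAT1 and SNORD3A had a CPSF4L peak. Both replicates of 6, 7, 5 and 5 other ZFPs, in that order, had peaks on these 4 genes. The long nuclear RNA NEAT1, the vault RNA VTRNA1-1, the histone-processing RNU7-1 and the U4, U5, U6 and U12 genes looked up had no peak of either paralog. Apart from U1, the 48 spliceosomal snRNA genes listed gave only RNU2-1 with 5.93 and RNU6ATAC with 5.26, both in CPSF4 replicate 1.

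Near TSSs, 1190 of 1607 peaks of CPSF4 replicate 1 (74.1%, interval 71.8 to 76.2%) and 519 of 941 of replicate 2 (55.2%, 51.9 to 58.4%) lay within 1 kb. For CPSF4L these were 113 of 237 (47.7%, 41.2 to 54.2%) and 31 of 125 (24.8%, 17.5 to 33.3%). Each CPSF4 library was above each CPSF4L library. Within 1 kb of a TSS lie 7.19% of the bases of chromosomes 1 to 22, X and Y. The means were 64.6% ± 13.4 (SD, n = 2) for CPSF4 and 36.2% ± 16.2 (SD, n = 2) for CPSF4L, a difference of 28.4 percentage points. With 2 libraries against 2 a two-sided exact permutation test cannot go below p = 0.333, which is the value it gave. The difference was 14.1 points without satellite-like peaks (exact p = 0.667) and 3.6 points with every list cut to its 125 strongest peaks (exact p = 0.667). CPSF4 was 5th of 36 ZFPs by its mean TSS share and CPSF4L 15th, beside a mean of 32.1% ± 23.1 (SD, n = 35) over the ZFPs other than CPSF4 (exact permutation of the label, p = 0.139 and 0.917, adjusted 0.833 and 0.917).

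Summits that lay near a protein-coding TSS had a median position close to it in each library. The median offset was −2 bp in CPSF4 replicate 1 and 4 bp in replicate 2, and −14 and 9 bp in CPSF4L, positive meaning downstream. Within 250 bp of the TSS were 72.7% and 74.2% of these CPSF4 summits, 74.7% and 60% of the CPSF4L ones, and 70.1% of those of all other ZFPs pooled. The share of CPSF4L replicate 2 rests on 15 summits, of which 66.7% lay downstream of the TSS.

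**Figure D3:**
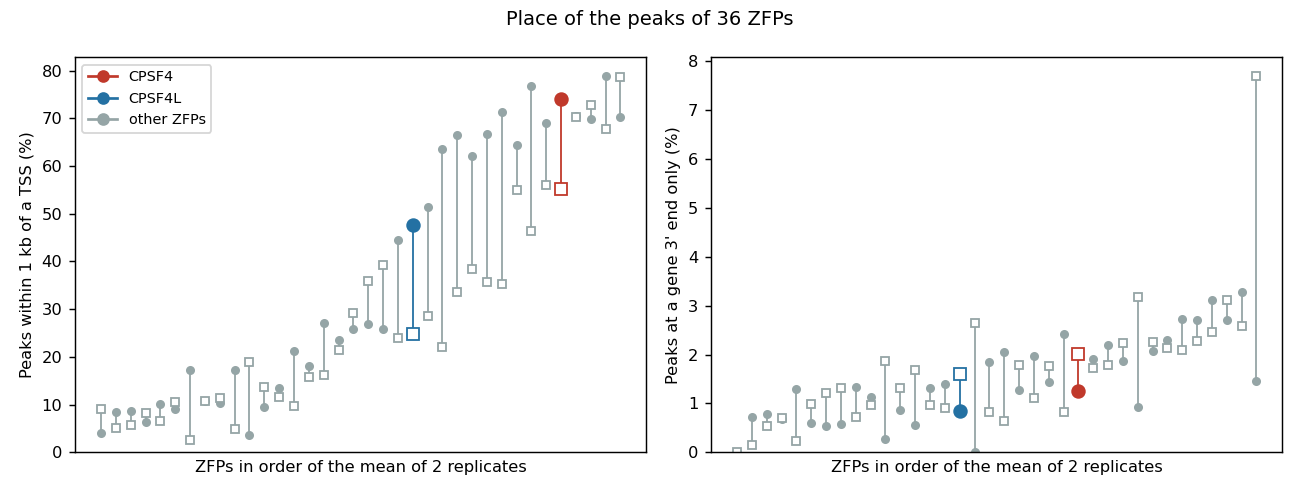
Percent of each list that lay near a TSS, at most 1 kb away (left), or at a gene 3′ end only (right), for 36 ZFPs in order of their mean. Filled circles are replicate 1 and open squares replicate 2. CPSF4 (red) is 5th from the top on the left with 74.1% and 55.2%, and both paralogs lie in the middle of the range on the right, between 0.844% and 2.02%.

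Gene 3′ ends, where the cleavage complex acts on RNA, held few peaks of either paralog. A peak was counted there if it lay within 1 kb of the 3′ end of a protein-coding transcript and over 1 kb from every TSS. This was so for 20 of 1607 peaks (1.24%, interval 0.762 to 1.92%) and 19 of 941 (2.02%, 1.22 to 3.14%) of CPSF4. It was so for 2 of 237 (0.844%, 0.102 to 3.01%) and 2 of 125 (1.60%, 0.194 to 5.66%) of CPSF4L. Such places take up 2.2% of the bases. The means of 1.63% ± 0.55 (SD, n = 2) and 1.22% ± 0.53 (SD, n = 2) differed by 0.410 points, less than either SD (two-sided exact permutation test, p = 0.667). The sign of this difference turned with a stricter q value, with a limit of 500 bp, with all peaks as deposited, without satellite-like peaks and with lists cut to 1 length. CPSF4 ranked 13th and CPSF4L 21st of 36 ZFPs (exact permutation, p = 0.889 and 0.75, both 0.917 adjusted).

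Only 1 of the 3′-end regions was found in both replicates of either ZFP. It lay in an exon of UNC13A, a synaptic vesicle priming factor, 11 bp from the 3′ end (chr19:17606062-17606516), with folds of 4.45 and 6.51 in CPSF4, no CPSF4L peak, and both replicates of 6 other ZFPs. The 38 regions of CPSF4 had folds between 4.02 and 6.51 by the higher replicate. CPSF4L had its 3′-end peaks at RNF126 (7.24) and FAM229B (5.63) in replicate 1 and at RPS9 (11.4) and PPP2R1A (5.24) in replicate 2. Of the 42 regions of both ZFPs, 20 lay before the annotated end, 17 past it, and 5 covered it. One of these 5 had a poly(A) signal word within 40 bases of the end, PRR36, which had a fold of 6.19 in CPSF4 replicate 1. Its site (chr19:7868728-7868757, minus strand) is shown with the word AATAAA in capitals.
PRR36: gcctgagtttgcAATAAAactgggacactg
AATAAA or ATTAAA stood within 40 bases of the nearest end in 15 of the 42 regions (35.7%), against 40.9% of all 74639 annotated protein-coding ends. Around all summits, within 100 bp and on either strand, these words occurred in 5.85% of the CPSF4 peaks, 11.3% of the CPSF4L peaks and 7.57% of the peaks of the other ZFPs. Away from satellite-like sequence the shares were 4.57%, 9.92% and 6.03%.

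Protein-coding promoters made up the largest class of CPSF4 regions that both replicates held. Over all 20033 protein-coding genes, 0.854% had a CPSF4 peak within 1 kb of a TSS in both replicates. That share is of 171 genes, and 1 peak can count for more than 1 gene. As merged regions named by their nearest TSS, without satellite-like and mitochondrial places, there were 90, of 88 genes. Of these 90 regions, 70 covered a TSS. Their lower folds ran from 3.38 to 9.62 with a median of 4.94. POLR1B led with 10.1 and 9.62. DYNC2I1, an intermediate chain of the ciliary dynein, had 8.61 and 8.21, and LRRC27 had 7.42 and 9.41. SLC3A2, the heavy chain of amino acid transporters, had 7.0 and 7.38. ACIN1, a splicing-associated chromatin factor, had 8.26 and 6.85. ASPH, an aspartate hydroxylase, had 7.0 and 6.84. NFE2L2, the transcription factor of the oxidative stress response, had 8.82 and 6.68. PAGR1, a cofactor of histone methyltransferases, had 8.29 and 6.51, and MGAT1, which starts complex N-glycan synthesis, had 8.20 and 6.41. Of these 9 highest promoters, POLR1B and PAGR1 had a CPSF4L peak.

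Most of these promoters recurred in other ZFPs. The median promoter of the 90 was called in both replicates of 3 other ZFPs, and 13 were called in both replicates of no other ZFP. The latter had modest folds. EIF1, a factor of start codon selection, had 6.09 and 5.91 and was called in 11 single lists of other ZFPs. WDR6 had 6.09 and 5.53, SOD2, the mitochondrial superoxide dismutase, 5.74 and 5.47, and DSN1, a kinetochore protein, 5.38 and 5.64. TFAP2A, a transcription factor of neural crest and epidermis, had 5.72 and 5.19 and was the only promoter of the 90 in no list of any other ZFP. APEX2, a DNA repair nuclease, shared the most of the 90 promoters, 51 (56.7%), followed by ZNF22 with 41, CISD1 with 40 and G2E3 with 37. These ZFPs had 9900, 7955, 11329 and 7625 peaks, so that their lists were also longer than those of CPSF4.

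The window of the EIF1 promoter (RefSeq, GRCh38.p14, chr17:41688635-41688934, plus strand) is shown as the highest promoter found in both replicates of no other ZFP. Of its 300 bases 236 lay inside the region. Capitals mark the GC box on the other strand and CCAAT on both strands, 2 matches that overlap.
EIF1: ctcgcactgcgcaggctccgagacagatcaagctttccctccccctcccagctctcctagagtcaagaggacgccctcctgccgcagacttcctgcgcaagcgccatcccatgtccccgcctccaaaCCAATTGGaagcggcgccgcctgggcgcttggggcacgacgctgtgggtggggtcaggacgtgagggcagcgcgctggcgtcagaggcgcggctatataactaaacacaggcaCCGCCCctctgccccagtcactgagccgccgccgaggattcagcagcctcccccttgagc
Over the RefSeq windows touched by a both-replicate CPSF4 region, 95 in number, GGGCGG stood on either strand in 84.2%, CCAAT in 46.3% and TATAAA in 3.16%. The 875 windows touched by a region of 1 CPSF4 replicate had 81.8%, 40.9% and 2.40%. The 73 windows of CPSF4L had 63.0%, 35.6% and 2.74%. Over all 21613 windows of protein-coding genes the shares were 56.8%, 34.9% and 9.45%. The words differ little between the regions of 1 and of both CPSF4 replicates, and no test was made of these shares.

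Gene lists, only some of them tied to the known roles of the complex, gave small counts of reproducible CPSF4 promoters. Beside the 0.854% of protein-coding genes called in both replicates, 8.04% were called in either. Of 23 cleavage and polyadenylation factors 1 was called in both, FIP1L1, a partner of CPSF4 in the complex, with folds of 5.38 and 5.47. CPSF3, the endonuclease (5.61), CPSF6 (4.45), PABPN1 (6.71) and SYMPK (4.4) were each called in 1 replicate, which makes 5 of 23 in either. None of 15 Integrator subunits was called in both and 4 were in either. None of 19 heat shock and immediate early genes was called in both and 6 were in either, among them FOS (6.68) and HSPD1 (5.60).

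Of 69 replication-dependent histone genes, whose mRNAs end without a poly(A) tail, 2 were called in both CPSF4 replicates and 12 in either. The 2 were the divergent pair H2BC4 and H2AC6, with 1 region of 5.90 and 4.85 between them. Of 89 ribosomal protein genes 1 was called in both and 9 in either. The 1 was RPS29, through the peak on RN7SL1 inside it. Of 78 mitochondrial ribosomal protein genes 2 were called in both, MRPL54 (6.81 and 5.47) and MRPS18B (5.26 and 4.82), and 12 in either. Of 48 spliceosomal snRNA genes 3 were called in both, all U1. The counts in both replicates of the protein-coding lists were of 0 to 2 genes. They are too small to be read as above or below the 0.854% of all protein-coding genes.

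For CPSF4L no member of these lists was called in both replicates. The background was 0.00998% of protein-coding genes, which is POLR1B and C14orf93 alone, and 0% of snRNA genes. In either replicate, against 0.594% of protein-coding genes, 4 of 89 ribosomal protein genes and 3 of 78 mitochondrial ribosomal protein genes were called. None of the cleavage, Integrator, heat shock or histone genes was.

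Nearest genes, counted once each and up to 100 kb away, numbered 1373 and 747 in the CPSF4 lists and 168 and 60 in the CPSF4L lists. Joined over replicates they were 1918 for CPSF4 and 205 for CPSF4L, and in both replicates 202 and 23. The pair had 70 of the joined genes in common, 3.65% of those of CPSF4 and 34.1% of those of CPSF4L. Of the genes in both replicates they had 14 in common, 6.93% and 60.9%. The numbers followed the list lengths. With lists cut to 1 length CPSF4 had 83 joined genes and CPSF4L 110.

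Median folds were 5.26 and 4.82 in the CPSF4 lists and 4.76 and 4.03 in the CPSF4L lists, with quartiles of 4.63 to 6.01, 4.11 to 5.51, 2.58 to 5.53 and 2.67 to 5.24. Peaks at TSSs had medians of 5.41 and 4.93 for CPSF4 and of 5.33 and 5.20 for CPSF4L. Satellite-like peaks had medians of 2.65 and 2.92, and of 2.34 and 2.81. The difference of the mean list medians, 0.65, became −0.15 once satellite-like peaks were left out.

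Regions shared by all 4 libraries numbered 28, which is 11.4% of the both-replicate regions of CPSF4 and 54.9% of those of CPSF4L. Of these 18 were satellite-like, in pericentromeric blocks such as that on chromosome 4, and the median one was also called in both replicates of 28 of the other 34 ZFPs. The satellite region whose sequence is given above had 2.82 and 3.42 in CPSF4 and 3.48 and 2.83 in CPSF4L, without separation of the paralogs, and was called in both replicates of 23 other ZFPs. The other 10 were 5.08% of the 197 CPSF4 regions that were not satellite-like and 66.7% of the 15 of CPSF4L. No shared region was without another ZFP that had both replicates there.

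POLR1B (chr2:112542153-112542802) was the shared promoter in which the paralogs separated. Its folds were 10.1 and 9.62 in CPSF4 against 5.13 and 6.32 in CPSF4L, without overlap. At C14orf93 (chr14:23006852-23007372) the folds of 6.28 and 4.69 in CPSF4 and of 5.75 and 6.64 in CPSF4L overlapped. The other ZFPs with both replicates numbered 11 and 12. Inside DHRSX, in the pseudoautosomal part of the X chromosome (chrX:2464053-2465168), they were 10.2 and 6.50 against 5.42 and 6.79. At the end of the short arm of chromosome 5 (chr5:10140-11735) they were 6.30 and 5.81 against 4.54 and 6.25, in a region that 28 other ZFPs shared.

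On a chromosome 17 contig the folds were 9.82 and 6.18 for CPSF4 and 9.30 and 6.15 for CPSF4L. On chromosome 17 itself (chr17:22521232-22521529) they were 8.05 and 7.49 against 4.87 and 4.33, and on chromosome 21 (chr21:6369043-6372435) 4.31 and 6.20 against 4.34 and 5.57. The remaining 3 were mitochondrial or a nuclear copy of mitochondrial sequence. The mitochondrial genome reached 3.82 and 3.30 in CPSF4 and 1.85 and 1.87 in CPSF4L over its longer region. MTCO1P12 on chromosome 1 had 4.50 and 4.74 against 1.78 and 2.64. Each of the 3 was higher in both CPSF4 libraries, and peaks covered 98.4% and 86.2% of the mitochondrial genome in CPSF4 and 30.1% and 8.17% in CPSF4L. Such cover was not particular to CPSF4, which ranked 4th of 36 ZFPs by its mean, with CPSF4L 18th. The median of the other ZFPs was 12.9%, and SALL4 had 99.8% in each replicate. Each of these 3 regions was called in both replicates of 15 to 17 other ZFPs. In 5 of the 10 regions every CPSF4 fold was above every CPSF4L fold, and with 2 libraries a ZFP these folds were not tested.

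**Figure D4:**
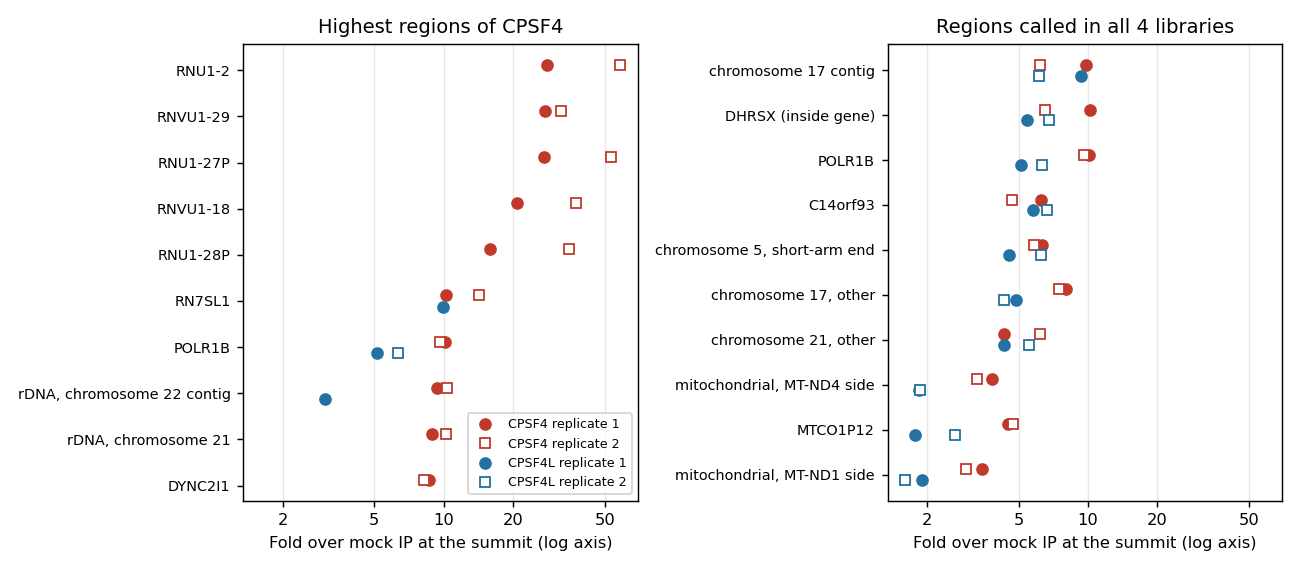
Fold over mock IP (log axis) in each of the 4 libraries, for the 10 highest both-replicate regions of CPSF4 (left) and the 10 regions outside satellite-like sequence called in all 4 libraries (right); a missing symbol means no peak. The 5 U1 genes stand from 15.9 to 58.2 with no CPSF4L symbol, and the right panel stays between 1.62 and 10.2.

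With peaks of either replicate, 88 regions held both ZFPs, 3.91% of those of CPSF4 and 31.5% of those of CPSF4L. Of them 34 were satellite-like and 27 were protein-coding promoters, 9 of these in both CPSF4 replicates and 2 in both CPSF4L replicates. MAZ, a zinc-finger transcription factor and itself one of the 36 ZFPs, had 9.84 and 6.18 for CPSF4 and 6.58 in CPSF4L replicate 1. PAGR1 had 4.76 in CPSF4L replicate 1, AIFM1, the mitochondrial apoptosis factor, 4.44, and PER1, a circadian repressor, 4.53. TEF had 8.04 and 4.22 for CPSF4 and 5.58 in CPSF4L replicate 2.

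The paralog was not the ZFP with which either shared most. Of the 246 CPSF4 regions, 185 (75.2%) were called in both replicates of CISD1 and 170 (69.1%) in both of APEX2, against 28 (11.4%) for CPSF4L, which stood 31st of 35. Of the 51 CPSF4L regions, 45 (88.2%) were called in both replicates of ZNF593 and 42 (82.4%) in both of MAZ, against 28 (54.9%) for CPSF4, which stood 17th. Such shares depend on the length of the partner's list, which held 362 peaks for CPSF4L and 2548 for CPSF4 after plasmid-borne genes were set aside. ZNF593 had 1911 peaks and MAZ 1444, both fewer than CPSF4. The order for CPSF4L also changed once satellite-like regions were left out. Of its 15 other regions, CPSF4 shared 10 (66.7%) and stood 2nd, level with several other ZFPs. ZNF593 led with 11 (73.3%), and MAZ stood 11th with 8 (53.3%). Of the 197 CPSF4 regions that were not satellite-like, CPSF4L shared 10 (5.08%) and stood 30th.

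**Figure D5:**
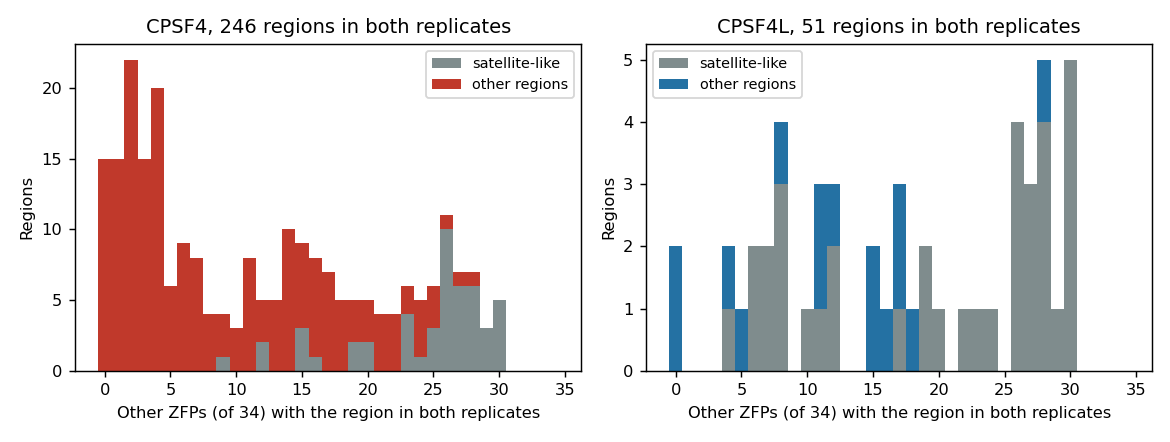
Number of both-replicate regions (vertical axis) of CPSF4 (left, 246) and CPSF4L (right, 51) by how many of the 34 other ZFPs had the region in both replicates. The grey satellite-like regions stand mostly at the right of both panels, and the CPSF4 regions of other kinds pile up at few ZFPs. In all, 15 of the 246 CPSF4 regions stand at 0.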

How the data were processed

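Peak lists of 72 V5 Cut&Run libraries were used, 4 of them of CPSF4 and CPSF4L. Per the labels and methods, the authors used Trimmomatic 0.36 for trimming, bowtie2 2.3.5.1 for alignment to hg38 (fragments from 10 up to 700 bp) and Picard 0.1.8 for duplicates. Narrow peaks came from MACS2 2.2.7.1, run per library with the V5 mock IP of its batch as control, at an FDR of 0.05. The deposited values are the caller's fold at the summit with mock IP as control, −log10 p, −log10 q and a score derived from q. Replicates were not pooled here. For their own results the authors checked the agreement of replicates on relaxed peaks. They then joined the strict peaks of both replicates for ZFPs that passed. The methods state 1 approximate sequencing depth for all samples. Read totals and batch membership of single libraries were not found in the labels or methods, so list length is the only measure of yield per library used here. No peak list of the mock IP was analysed here.

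Peaks were placed with GENCODE 44 on the hg38 sequence, in which all 92 contigs were long enough to hold them. Distances run from the nearest edge of a peak. Peaks that share 1 bp or more count as overlapping, and a region is the union of overlapping peaks of the 4 lists. A peak was called rDNA if at least 50% of its 31-base words occur within 20 kb of a 5.8S gene of chromosome 21. Intervals are exact 95% binomial intervals and cover counting error only. Exact permutation tests were two-sided. Python 3.11.15, pandas 2.3.3, scipy 1.17.1, matplotlib 3.10.9, samtools 1.23.1 and blastn 2.17.0 were used, and overlaps, merging and nearest TSSs were tested on simulated data against bedtools 2.31.1 and a full search (500 of 500 overlaps and 500 of 500 distances were the same).

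The named regions are the own genes and EEF1A1, the 10 highest both-replicate regions of each ZFP by the lower fold, at most 15 shared regions, 3′-end regions in both replicates and members of the gene lists. The values were already known when the promoter groups, short noncoding RNA genes and windows shown were picked. The members, lists and rules were chosen with earlier results of these data known. The alternatives were stricter q values, other overlaps, distances and TSS sets, lists without satellite-like peaks or with plasmid-borne genes, lists of 1 length, left-out replicates, a replicate block and, chosen after seeing the data, chromosomes 1 to 22, X and Y alone and the pseudogene set aside.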

Additional observations from a re-analysis of the deposited data

How the results depend on the processing

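All 17 alternatives for the TSS share kept the sign of the CPSF4 minus CPSF4L difference, which ran from 3.6 to 39.8 percentage points. It was 16.9 points without CPSF4L replicate 2, 18.9 without CPSF4 replicate 1 and 39.8 without CPSF4L replicate 1. The 3′-end difference turned in 6 of 14 alternatives, to −0.58 and −1.37 points at −log10 q of at least 3 and 5, −0.15 at 500 bp, −0.14 with all peaks as deposited, −0.26 without satellite-like peaks and −1.20 with lists of 1 length, and ran from 0.023 to 0.797 with 1 replicate left out. The cause of these turns was not tested. With the replicate number as a block, the exact sign-flip permutation test over 2 pairs gave p = 0.5 for both differences of 28.4 and 0.410 points, the smallest it can give. Same-numbered libraries deviated together over the 8 place classes (correlation 0.83), and no source used here says that a number marks a batch.

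At −log10 q of at least 3 and 5 the peaks found in both replicates were 49.0% and 65.9% for CPSF4 and 64.0% and 63.6% for CPSF4L, the nearest genes 981 and 327 for CPSF4 and 99 and 45 for CPSF4L, the fold difference 2.54 and 3.34, and, at 5, the shared regions 18. Without satellite-like peaks the replicate shares were 27.2% and 30.4%, the shared regions 10 and the fold difference −0.15. With lists of 1 length the replicate shares were 71.2% and 41.6%, the genes 83 and 110, and the fold difference 1.72. With only peaks found in both replicates the genes were 179 and 22 and the fold difference 2.29. The CPSF4 replicate share was 34.6% with peaks within 500 bp and 26.1% on chromosomes 1 to 22, X and Y. Leaving out 1 replicate gave 747 and 1373 CPSF4 genes, 60 and 168 CPSF4L genes, and 29 to 45 shared regions (45 without CPSF4L replicate 2). The fixed lists had 59 CPSF4 and 8 CPSF4L genes in either replicate, against 9 and 0 in both. Within 50 bp of the summit, poly(A) signal words were in 2.94% of CPSF4 and 4.97% of CPSF4L peaks. Of 98 alternatives in all, 60 were counted as unchanged. By kind of result this meant the same sign, a value within its error or, for counts, within a fixed ratio. The 98 include the replicate block, which leaves the difference as it is and changes only the p-value. With 2 libraries a ZFP, the exact permutation test between the paralogs cannot go below 0.333.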

Other observations

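The 5 highest peaks of CPSF4L replicate 2 that replicate 1 lacked were narrow, 135 to 148 bp, and each covered at least 1 exon boundary inside a protein-coding gene. They lay in VARS1, valyl-tRNA synthetase (fold 12.2), RPS9, a ribosomal protein (11.4), SART1, a component of the U4/U6.U5 particle (11.3), UPP1, uridine phosphorylase (11), and ANAPC5, a subunit of the anaphase-promoting complex (10.5). All 5 were also called in RNF113A replicate 1, with folds of 25.5, 32.8, 30.3, 39.1 and 23.3 in the same order, and none in RNF113A replicate 2. RBM5 replicate 1 had the peaks at RPS9 (12.5), UPP1 (10.3) and ANAPC5 (11.9), and RBM5 replicate 2 that at RPS9 (9.05). No list of CPSF4 or of any ZFP other than RNF113A and RBM5 held them. These peaks were looked at because of their folds, and no test was made of them.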
